A study of Mus musculus with 9 samples.

Results

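The results concern 9 genes of the postsynaptic density, followed across the 3 layers of mouse piriform cortex. They are Camk2b, Dlg3, Dlg4, Dlgap1, Homer1, Cnksr2, Lrrc7, Iqsec2 and Agap2. They are signalling and scaffold proteins of excitatory synapses, were chosen by name with earlier results of these data known, and make up 9 of the 33964 gene symbols with a transcript in the deposited counts. Each gene was represented by the transcript with its highest mean count over the 9 samples, and all 9 passed the filter on low counts. All samples came from wild-type C57BL/6 mice with no treatment. The labels give their age as 8 weeks, and the study's methods give an older one. Layers were cut by laser capture from fresh-frozen coronal sections. They are lettered A, B and C in the labels, 3 replicates apiece, without saying which is layer I, II or III. Laser capture takes all cells and processes within the cut area, including glia and vessels. The labels do not tie replicates to animals. The p-values therefore measure only the spread between these samples, which may be technical.

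The postsynaptic density is the protein mesh beneath the membrane of an excitatory synapse. Scaffold proteins with PDZ domains hold NMDA and AMPA receptors in place, and further scaffolds of the SAPAP, Shank and Homer families link them to metabotropic receptors and actin. Calcium entering through NMDA receptors activates the kinase CaMKII, and regulators of small GTPases control receptor traffic. In piriform cortex, such synapses receive sensory input from the olfactory bulb and recurrent input from other piriform neurons.

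Of the 9 genes, 3 differed between layers, all lower in layer A. These were Camk2b, Dlg3 and Homer1, which stood 2.92-fold to 3.19-fold below their levels in layer B. Of all tested transcripts, 16.5% passed against layer B, with 5.83% lower in layer A. Against layer C 11.3% passed, with 4.35% lower in layer A, and between layers B and C 0% passed. The PSD-95 gene Dlg4 and the GTPase-activating gene Agap2 had higher mean levels in layer A, without passing the test. The remaining 4 genes, Dlgap1, Cnksr2, Lrrc7 and Iqsec2, did not pass the test in any comparison. No member passed between layers B and C.

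Homer1 needs its sequence shown first, because its transcripts encode short and long proteins and the counted one is the short form. Homer proteins bind metabotropic glutamate receptors, Shank and the IP3 receptor. The short form, known as Homer1a, lacks the coiled coil through which the long forms multimerise, and is induced by neuronal activity. The counted transcript, Homer1-204 (ENSMUST00000102752), has a short coding sequence of 186 codons. Homer1-203 (ENSMUST00000080127) and Homer1-201 (ENSMUST00000060490) have 366 and 354 codons. The first 527 coding bases of the 3 transcripts are identical. The lines below give the last 30 of these shared bases in lower case, 5′ to 3′, from the GENCODE transcripts. Capitals give the next 34 coding bases of each form, and whether they recur later in another form was not checked.
Homer1-204: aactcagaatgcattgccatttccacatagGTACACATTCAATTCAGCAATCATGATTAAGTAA
Homer1-203: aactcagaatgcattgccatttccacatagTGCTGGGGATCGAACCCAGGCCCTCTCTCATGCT
Homer1-201: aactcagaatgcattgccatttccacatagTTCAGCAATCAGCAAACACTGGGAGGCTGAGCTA
In the short form the capitals run to the TAA stop. A read from the shared bases can count for every form, so that the values of the 3 transcripts are not independent.

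Reads were counted per Ensembl transcript, and the values below are CPM, counts divided by library sizes that edgeR's TMM method had scaled. Total counts ranged from 23104306 to 76471683 per sample, and members had between 150 and 21839 counts in a sample. A floor of 3 counts stood at 0.0255 to 0.254 CPM, below every member's value. Mitochondrial ribosomal RNA took 55.3% to 70.2% of counts in layer A samples, 12.8% to 28.1% for layer B and 20.5% to 57.1% for layer C. Layer B replicate 3 stood apart within its layer, with a correlation of log2 CPM of 0.888 and 0.880 with the other 2 samples of layer B. Those correlated at 0.978 with each other. Samples of layer A correlated at 0.894 to 0.913 and those of layer C at 0.905 to 0.960. Without layer B replicate 1 or replicate 2, which breaks the close pair, 3 members still passed against layer B. Results that rest on layer B replicate 3 are given with and without it.

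Markers of cell types also moved with the layers. Pan-neuronal markers were lower in layer A for 8 of 10 genes against layer B and 6 of 10 against layer C. Their summed level was 1330 to 1960 CPM for layer A, 2792 to 6658 for layer B and 3283 to 4250 for layer C. Glutamatergic markers were lower in layer A for 4 of 10 genes against layer B and 6 of 10 against layer C, with summed levels of 134.5 to 269.6, 536.7 to 641.2 and 447.1 to 621.4 CPM in layers A, B and C. Of these, Emx1 was at 0 in at least 1 sample. All 12 astrocyte markers were higher in layer A in both comparisons. They summed to 5207 to 10838 CPM for layer A, 772.0 to 1282 for layer B and 1351 to 1807 for layer C. All 6 pericyte and 8 meningeal markers were also higher in layer A in both comparisons. The meningeal sum was 74.8 to 169.1 CPM for layer A, 1.48 to 7.56 for layer B and 4.34 to 6.12 for layer C, and Slc6a13 and Islr were at 0 in at least 1 sample. GABAergic markers passed in 3 of 10 genes, all higher, against layer B. Against layer C, 2 were lower and 1 was higher. Their sum was 397.0 to 717.0 CPM for layer A, 166.4 to 383.4 for layer B and 322.6 to 427.2 for layer C. Against layer B, layer A was also higher in 8 of 10 microglial, 7 of 8 endothelial, 6 of 6 oligodendrocyte precursor and 2 of 10 oligodendrocyte markers, and against layer C in 6, 6, 2 and 0 of the same lists. Pvalb, Ly6c1 and Acta2 were at 0 in at least 1 sample. In dissected tissue, fewer cells of a type and less RNA per cell cannot be told apart. The part of these markers in the results below was not tested.

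Against layer B, 3 of the 9 members were lower in layer A and none was higher by edgeR's quasi-likelihood test, with p-values adjusted over all 56416 tested transcripts by the Benjamini-Hochberg procedure. Over all transcripts, 5.83% were lower and 10.7% higher, and 16.5% passed in either direction. At an unadjusted p under 0.05, 5 members passed, beside 29% of all transcripts, and DESeq2 called the same number of members, 3, beside 20.7% of all transcripts. The members' median log2 fold change was -0.15, beside -0.12 over all transcripts, and the single values ran from -1.67 to 0.82. In each of 4 genes, Camk2b, Dlg3, Homer1 and Lrrc7, every sample of layer A lay below every sample of layer B, which held for 15.1% of all transcripts. In Agap2, every sample of layer A lay above every sample of layer B, as did 17.2% of all transcripts.

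Against layer C, 3 members were again lower in layer A and none was higher, beside 4.35% lower, 6.98% higher and 11.3% in either direction among all transcripts. At an unadjusted p under 0.05, 4 members passed (24.5% of all transcripts), and DESeq2 called 3 (15.7%). Every sample of layer A lay below those of layer C in 3 members (14.5% of all transcripts) and above them in 1 (17%). A joint test of all 3 layers called 3 members, beside 14.3% of all transcripts. The members' median was -0.28, beside -0.01 over all transcripts. The 2 comparisons share the samples of layer A and are therefore not independent. The count against layer C fell to 1 member, Homer1, when layer A replicate 1, layer A replicate 2 or layer C replicate 1 was left out. Without layer C replicate 3 the count was 3, but with Lrrc7 in place of Camk2b. Against layer B, it was 3 under each of these omissions and under every other alternative tried.

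**Figure D1:**
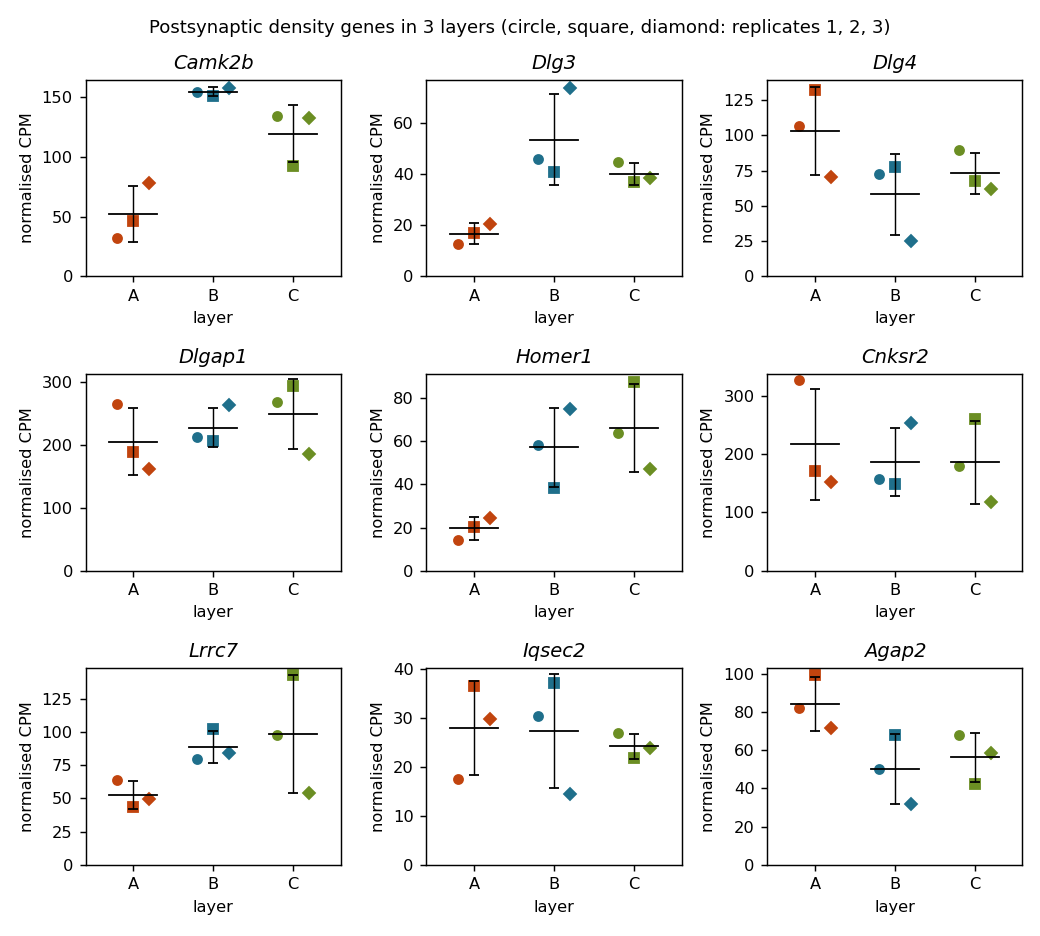
Normalised CPM of the 9 genes in each sample, by layer, on a linear axis from 0 that differs between panels. Circles, squares and diamonds are replicates 1, 2 and 3, and lines and bars give the mean and SD (n = 3). Camk2b, Dlg3 and Homer1 are lower in every sample of layer A, Agap2 is higher, and Dlgap1, Cnksr2 and Iqsec2 overlap between all layers.

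Camk2b, the kinase gene of the set, encodes the beta subunit of CaMKII, which binds actin filaments and so anchors the kinase in spines. Its transcript ENSMUST00000109813 lies on the minus strand of chromosome 11, from 5969644 to 6065748 in GRCm38 (mm10), and is protein coding. It stood at 32, 46.2 and 78.2 CPM in replicates 1, 2 and 3 of layer A. It stood at 154.6, 150.9 and 158.1 CPM in layer B, and at 134.1, 92.0 and 132.3 CPM in layer C. The 3 layers did not overlap, with layer A lowest and layer B highest. The means of layers A, B and C were 52.1 ± 23.7, 154.5 ± 3.60 and 119.5 ± 23.8 CPM (SD, n = 3). Layer A against layer B gave a log2 fold change of -1.56 ± 0.331 (SE), or a 2.96-fold lower level, with an adjusted p of 0.00484 (edgeR's quasi-likelihood test). Against layer C it was -1.19 ± 0.328, with an adjusted p of 0.0287 in the same test. Without layer B replicate 3 the value against layer B was -1.50 (adjusted p = 0.00537). The adjusted p against layer C rose to 0.115 without layer A replicate 1, 0.115 without layer A replicate 2, 0.130 without layer C replicate 1 and 0.0792 without layer C replicate 3. Between layers B and C the log2 difference of 0.37 ± 0.324 did not pass. Although every sample of layer B lay above every sample of layer C, the same held for 3.92% of all transcripts. In no member did every sample of layer B lie below every sample of layer C, which held for 4.67% of all transcripts.

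The Dlg genes encode MAGUK scaffolds, whose PDZ domains bind NMDA receptor subunits. Dlg3 encodes SAP102, known for its abundance early in development, and Dlg4 encodes PSD-95, the main scaffold of mature excitatory synapses. The Dlg3 transcript ENSMUST00000147863 lies on chromosome X, plus strand, from 100767995 to 100818410. It is annotated as a retained intron, but the coding transcript ENSMUST00000087984 had 99.9% of its mean count and the same result. The Dlg4 transcript ENSMUST00000108588 is coding and lies on chromosome 11, plus strand, from 70018444 to 70045532. The pair is told apart by reads of 50 bases, since the longest run their coding sequences share has 20 bases. It is shown because it bounds how far paralogs could trade reads.
Dlg3 and Dlg4: accaagatcattcctggtgg
The run starts at coding base 541 in Dlg3 and 289 in Dlg4.

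Dlg3 stood at 12.7, 16.9 and 20.6 CPM in layer A. It reached 45.9, 40.7 and 73.7 CPM in layer B and 44.7, 36.7 and 38.2 CPM in layer C. Every sample of layer A lay below all 6 others, and layers B and C overlapped. The log2 fold change against layer B was -1.67 ± 0.316 (SE), 3.19-fold lower, with an adjusted p of 0.00245 (edgeR's quasi-likelihood test). It was -1.31, with an adjusted p of 0.00403, without layer B replicate 3, the highest sample. Against layer C it was -1.25 ± 0.313, with an adjusted p of 0.0190. That call was lost without layer A replicate 1 (adjusted p = 0.0839), layer A replicate 2 (0.0674) or layer C replicate 1 (0.104).

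Dlg4 had the opposite order of means. It stood at 106.5, 132.2 and 70.3 CPM in layer A, 72.4, 77.4 and 25.3 CPM in layer B and 89.5, 67.8 and 62.1 CPM in layer C. Layer A replicate 3 lay within the range of both other layers, and layer B replicate 3 was the lowest of all samples. The log2 difference of 0.82 ± 0.386 from layer B did not pass, with an adjusted p of 0.173 by edgeR's quasi-likelihood test. It was 0.52 without layer B replicate 3, with an adjusted p of 0.289. Against layer C it was 0.49 ± 0.384, with an adjusted p of 0.487.

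Since both genes were read in the same library, their ratio per transcript length does not depend on the scaling of libraries. Dlg4 over Dlg3 was 12.1, 11.3 and 4.91 in layer A, 2.27, 2.74 and 0.494 in layer B and 2.88, 2.66 and 2.34 in layer C. Every ratio of layer A lay above all others. Layer B replicate 3 had the lowest. The exact two-sided permutation test gave p = 0.1 against layer B and against layer C, the smallest value that 3 samples against 3 allow, and p = 0.4 between layers B and C. This ratio and 5 others below were chosen after the values were seen, and their p-values are not adjusted for 6 ratios.

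Scaffolds that join the layers of the density came next. Homer1-204 lies on chromosome 13, plus strand, from 93304495 to 93360462. It stood at 14.0, 20.2 and 24.5 CPM in layer A. It reached 58.2, 38.4 and 75.1 CPM in layer B and 63.8, 87.6 and 47.1 CPM in layer C. Layer A lay below both other layers in every sample, and layers B and C overlapped. The means were 19.6 ± 5.30 CPM (SD, n = 3), 57.2 ± 18.4 and 66.2 ± 20.4. The log2 fold change was -1.55 ± 0.346 (SE) against layer B, with an adjusted p of 0.00664, and -1.75 ± 0.348 against layer C, with an adjusted p of 0.00656 (edgeR's quasi-likelihood test). Without layer B replicate 3 the value against layer B was -1.25 (adjusted p = 0.0148). Homer1 was the member that passed both comparisons under all alternatives tried, with adjusted p-values of at most 0.0429 against layer B and 0.0386 against layer C.

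The long coding form Homer1-203 was also lower in layer A. Its log2 fold change was -1.03 ± 0.329 against layer B (adjusted p = 0.0429, edgeR's quasi-likelihood test) and -1.43 ± 0.332 against layer C (adjusted p = 0.0132). The ratio of counts of the short form over this long form was 0.771, 0.761 and 1.04 in layer A, 1.31, 1.12 and 1.24 in layer B and 1.04, 1.06 and 1.14 in layer C. All ratios of layer A were below those of the other layers, with exact two-sided permutation p = 0.1 for both comparisons, the smallest possible. Layer A replicate 3 (1.037) and layer C replicate 1 (1.044) were nearly equal. Since the forms share reads, the ratio is compressed and is not the ratio of molecules.

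Dlgap1 encodes SAPAP1, which ties PSD-95 to Shank. Its coding transcript ENSMUST00000133983 lies on chromosome 17, plus strand, from 69969073 to 70821413. It stood at 264.4, 189.2 and 161.5 CPM in layer A, 212.9, 206.0 and 263.7 CPM in layer B and 268.4, 293.0 and 186.0 CPM in layer C. The layers overlapped throughout. The log2 differences of layer A were -0.15 ± 0.292 (SE) from layer B and -0.28 ± 0.292 from layer C. Their adjusted p-values were 0.785 and 0.626 by edgeR's quasi-likelihood test.

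Lrrc7 encodes densin, a leucine-rich scaffold that binds CaMKII. Its coding transcript ENSMUST00000106044 lies on chromosome 3, minus strand, from 158084439 to 158562221. It stood at 64.2, 43.5 and 49.4 CPM in layer A, 79.8, 102.2 and 84.0 CPM in layer B and 97.4, 143.1 and 54.3 CPM in layer C. Layer A was below layer B in every sample and overlapped with layer C through replicate 3 of that layer. The log2 difference from layer B was -0.76 ± 0.337, with an adjusted p of 0.145 (edgeR's quasi-likelihood test). From layer C it was -0.91 ± 0.338, with an adjusted p of 0.101. Without layer C replicate 3 the latter became -1.18 with an adjusted p of 0.0347, so that 1 library decided the call.

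Cnksr2 encodes CNK2, a multidomain scaffold that binds PSD-95 and regulators of Rac and Ras signalling. Its coding transcript ENSMUST00000026750, Cnksr2-201, lies on chromosome X, minus strand, from 157821436 to 158043294. It stood at 327.8, 170.9 and 152.9 CPM in layer A, 157.1, 149.1 and 253.9 CPM in layer B and 179.6, 261.3 and 118.1 CPM in layer C. The highest value was that of layer A replicate 1, and all layers overlapped. The log2 difference from layer B was 0.22 ± 0.370 and that from layer C was also 0.22 ± 0.370, with adjusted p-values of 0.751 and 0.782 by edgeR's quasi-likelihood test. Without layer A replicate 1 both turned negative.

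The other main transcript of Cnksr2, ENSMUST00000112513 (Cnksr2-202), had 51.6% of the mean count of the first and ends earlier, at 157832743 against 157821436 on the minus strand. The transcripts also differ in exons (22 in Cnksr2-201, 21 in Cnksr2-202) and in coding length (3096 and 2688 bases). A ratio of their counts therefore does not separate the choice of end from that of exons. The last 30 bases of both are given because the ends are 1 of these differences, with an AATAAA polyadenylation signal in capitals.
Cnksr2-201: gtaaactgaagtcaAATAAAtccagctctt
Cnksr2-202: tgtgAATAAAaatcacattgatctgcctta
Each end therefore carried a signal of its own. Cnksr2-202 had a log2 difference of -0.42 ± 0.336 from layer B and -0.42 ± 0.336 from layer C, neither of which passed. The ratio of counts of Cnksr2-201 over Cnksr2-202 was 2.90, 3.34 and 2.44 in layer A, 1.60, 1.55 and 2.31 in layer B and 1.72, 2.00 and 1.73 in layer C. Layer A was highest in every sample. The exact two-sided permutation p was 0.1 against each other layer, the smallest possible, and 1 between layers B and C. The closest samples were layer A replicate 3 and layer B replicate 3.

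Regulators of small GTPases close the set. Iqsec2 encodes an exchange factor for Arf6, which binds PSD-95 and guides AMPA receptor traffic. Its coding transcript ENSMUST00000112605 lies on chromosome X, plus strand, from 152144272 to 152225236. It stood at 17.6, 36.5 and 29.7 CPM in layer A, 30.3, 37.1 and 14.5 CPM in layer B and 27.0, 21.9 and 23.8 CPM in layer C. All layers overlapped. The log2 differences of layer A were 0.03 ± 0.363 from layer B and 0.21 ± 0.364 from layer C, with adjusted p-values of 0.966 and 0.794 by edgeR's quasi-likelihood test.

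Agap2 encodes PIKE, a GTPase-activating protein for Arf that also enhances PI 3-kinase and Akt signalling. Its coding transcript ENSMUST00000039259 lies on chromosome 10, plus strand, from 127078907 to 127093169. It stood at 81.9, 99.6 and 71.7 CPM in layer A, 50.4, 68.2 and 31.9 CPM in layer B and 67.7, 42.2 and 58.7 CPM in layer C. Every sample of layer A was above those of both other layers, as was the case for 17.2% of all transcripts against layer B and 17% against layer C. The log2 difference from layer B was 0.75 ± 0.321 (SE), with an adjusted p of 0.131, and from layer C 0.59 ± 0.321, with an adjusted p of 0.287 (edgeR's quasi-likelihood test). Neither passed, and the difference from layer B was 0.57 without replicate 3 of that layer.

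No member passed between layers B and C. edgeR's quasi-likelihood test called 0 of 9 after adjustment and 0 at an unadjusted p under 0.05, and DESeq2 also called 0. Over all transcripts, edgeR called 0%, 4.11% had an unadjusted p under 0.05, and DESeq2 called 0.23%. The members' log2 differences of layer B from layer C ran from -0.33 in Dlg4 to 0.42 in Dlg3, with standard errors of 0.292 to 0.383. Differences larger than these errors could also go undetected in 3 samples against 3. Tanc1, a related gene, did not pass at 1.05 ± 0.301 (adjusted p = 0.715, edgeR's quasi-likelihood test). The absence of calls therefore does not show equal levels in layers B and C.

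Between genes, levels were compared per kilobase of the counted transcript. The order depends on which transcript supplies the length. Dlg4-201 (ENSMUST00000018700), shorter but with nearly the same counts as the counted Dlg4 transcript, stood at 38.0 ± 11.5 CPM per kb in layer A. The long form Homer1-203 stood at 7.46, 15.2 and 20.2 CPM per kb in layers A, B and C. The order below holds for the counted transcripts only. In layer A, Cnksr2 was highest at 37.9 ± 16.8 CPM per kb (SD, n = 3), followed by Dlg4 at 29.5 ± 8.92, Dlgap1 at 28.6 ± 7.42, Agap2 at 15 ± 2.51 and Camk2b at 13.0 ± 5.89. Lrrc7 at 8.85 ± 1.8, Iqsec2 at 4.65 ± 1.59, Homer1 at 3.42 ± 0.927 and Dlg3 at 3.33 ± 0.785 were lowest. Neighbours in this order lay within their SDs of each other, except Dlgap1 and Agap2, and Lrrc7 and Iqsec2. In layer B, Camk2b came first at 38.4 ± 0.895 CPM per kb. Cnksr2 followed at 32.5 ± 10.2 and Dlgap1 at 31.7 ± 4.39. Dlg4 at 16.7 ± 8.24, Lrrc7 at 15 ± 2.01, Dlg3 at 10.6 ± 3.55, Homer1 at 10.02 ± 3.21 and Agap2 at 8.90 ± 3.22 followed, and Iqsec2 was lowest at 4.54 ± 1.93. Among neighbours in this order, Dlgap1 and Dlg4 alone differed by more than their SDs. In layer C the order was Dlgap1 (34.7 ± 7.81), Cnksr2 (32.5 ± 12.5), Camk2b (29.7 ± 5.91), Dlg4 (21.0 ± 4.15), Lrrc7 (16.6 ± 7.5), Homer1 (11.6 ± 3.57), Agap2 (9.98 ± 2.30), Dlg3 (7.95 ± 0.848) and Iqsec2 (4.03 ± 0.427). Neighbours in layer C lay within their SDs of each other, except Dlg3 and Iqsec2. Camk2b stood below 4 other members in layer A and above all of them in layer B, and Iqsec2 was lowest in layers B and C.

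The calls of Camk2b, Dlg3 and Homer1 were shared by most of their transcripts. Of 15 tested transcripts of Camk2b, 14 were lower in layer A against layer B and 11 against layer C. For Dlg3, 6 of 8 were lower in each comparison, and for Homer1, 7 and 10 of 11. No transcript of Dlg4 (13 tested), Dlgap1 (16), Cnksr2 (3), Iqsec2 (7), Lrrc7 (1) or Agap2 (1) passed. Their log2 differences of layer A from layer B held both signs in Dlg4 (-0.44 to 0.95), Iqsec2 (-0.48 to 0.38) and Cnksr2 (-0.42 to 0.22). Second transcripts of Camk2b, Dlg3, Dlg4 and Iqsec2 had 99.9% or more of the top count, so that these counts are largely the same reads and are no independent evidence. In 6 members, no stretch of 50 bases of the counted transcript occurred in another gene. Dlgap1 shared 0.646% of its stretches with the antisense gene AC079441.1, Lrrc7 0.307% with the antisense gene Gm42968, and Cnksr2 0.0176% with Cog7. The libraries did not keep strand, and reads from Dlgap1 or Lrrc7 and their antisense partners over those bases cannot be told apart.

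**Figure D2:**
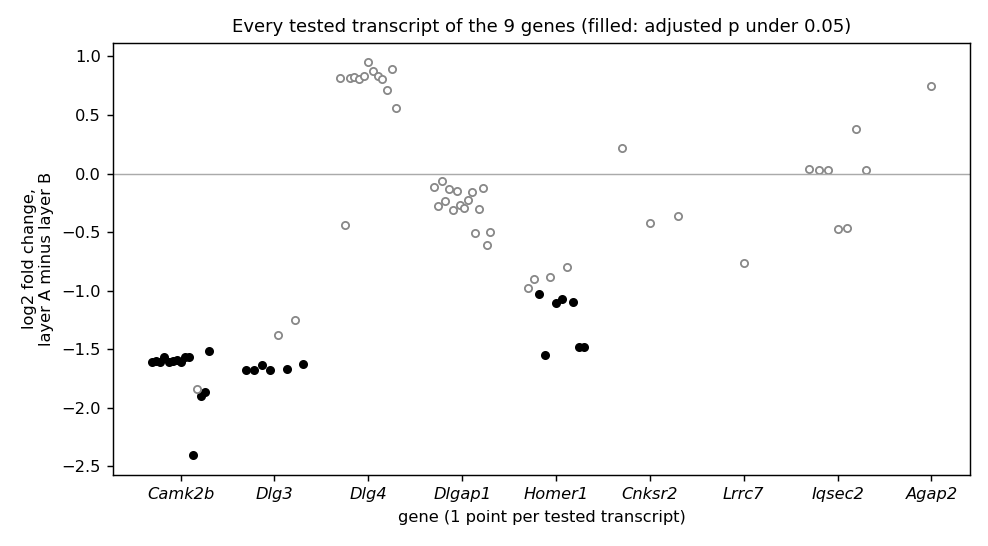
Log2 fold change of layer A minus layer B for each tested transcript of the 9 genes, 1 point per transcript in order of identifier, with filled points for an adjusted p under 0.05. All points of Camk2b, Dlg3 and Homer1 lie below 0, and no point of the other genes is filled.

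Another form of Camk2b, Camk2b-202 (ENSMUST00000019133), ends upstream of the counted form, Camk2b-209 (ENSMUST00000109813). The 2 forms also differ in exons (24 and 21) and coding length (1998 and 1626 bases). Coverage toward the transcript end is therefore not isolated by comparing them. The ratio of their counts was 0.561, 0.437 and 0.460 in layer A, 0.568, 0.603 and 0.291 in layer B and 0.515, 0.586 and 0.446 in layer C. Layer B replicate 3 was lowest, and the layers overlapped. That sample also had the lowest Dlg4, Iqsec2 and Agap2 values and the highest Dlg3 value of all samples, and whether these go together was not tested. Camk2b-202 itself had a log2 fold change of -1.60 ± 0.349 for layer A against layer B (adjusted p = 0.00574, edgeR's quasi-likelihood test).

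The rest of the density was read from 31 related genes, all tested. A further listed gene, Begain, was not matched. Against layer B, 8 were lower in layer A, 7 were higher and 16 did not pass, with a median log2 fold change of 0.08. Over all transcripts, 5.83% were lower and 10.7% higher, with a median of -0.12. The 8 lower genes fell to 4 without layer A replicate 1, layer A replicate 2 or layer B replicate 1, and to 5 without layer B replicate 2 or with only the 6 samples of these layers, while 6 to 9 were higher under all alternatives. Against layer C, 6 were lower, 5 were higher and 20 did not pass, with a median of 0.24. Over all transcripts, 4.35% were lower and 6.98% higher, with a median of -0.01. Between layers B and C none of the 31 passed edgeR's test or DESeq2's. At an unadjusted p under 0.05 in edgeR's test there were 3, beside 4.11% of all transcripts. Leaving out 1 library changed the count of 11 against layer C to 5 (without layer A replicate 1), 6 (layer A replicate 2), 0 (layer C replicate 1) or 6 (layer C replicate 2). Of these, 3, 2, 0 and 2 were lower in layer A.

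**Figure D3:**
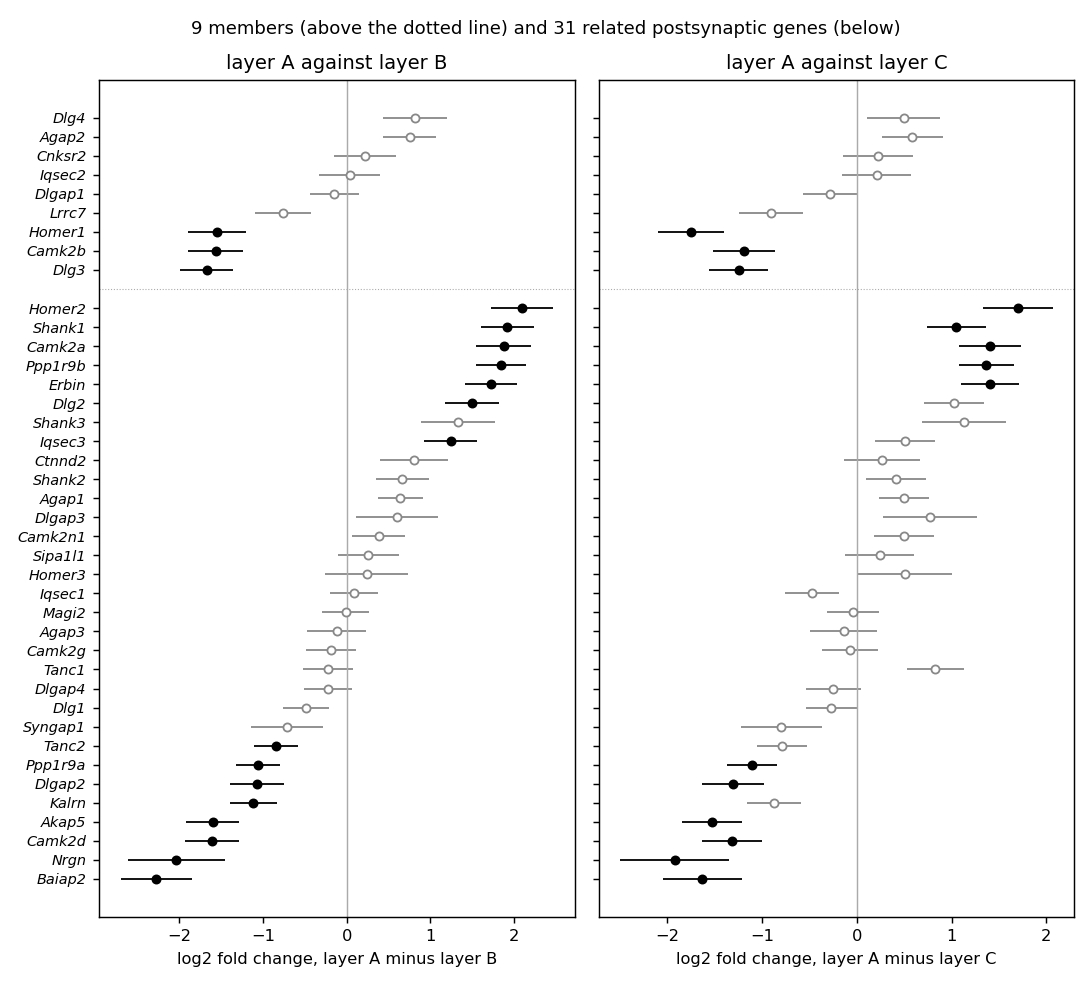
Log2 fold change with SE of layer A minus layer B (left) and layer A minus layer C (right) for the 9 members, above the dotted line, and 31 related genes, below it. Filled points have an adjusted p under 0.05 by edgeR's quasi-likelihood test. Of the filled points against layer B, 3 members and 8 related genes lie to the left and 7 related genes to the right. Over all transcripts, 5.83% were lower and 10.7% higher in that comparison.

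Paralogs of 1 family moved in opposite directions. In the CaMKII family, Camk2a, the alpha subunit, was higher in layer A, with 4131, 2672 and 2126 CPM against 740.1, 881.8 and 813.8 CPM in layer B and 1325, 1289 and 751.1 CPM in layer C. It rose by 1.87 ± 0.332 on the log2 scale against layer B (adjusted p = 0.0016) and by 1.41 ± 0.327 against layer C (adjusted p = 0.0135, edgeR's quasi-likelihood test). Camk2a mRNA is known to be carried into dendrites, whereas that of Camk2b is known to stay mainly in the cell body. Camk2d, the delta subunit, was lower, at -1.61 ± 0.319 and -1.32 ± 0.317 (adjusted p = 0.00323 and 0.0154). Camk2g, the gamma subunit, had log2 differences of -0.19 and -0.07, and Camk2n1, an inhibitor of the kinase, was at 0.38 and 0.50. Neither passed.

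The ratio of Camk2a to Camk2b per length was 104.5, 46.9 and 22.0 in layer A. It was 3.87, 4.73 and 4.17 in layer B and 7.99, 11.3 and 4.60 in layer C. The lowest ratio in layer A was above the highest elsewhere, although the ratios of layer A themselves spread widely. The exact two-sided permutation p was 0.1 against each other layer, the smallest possible, and 0.2 between layers B and C. Camk2a was higher and Camk2b lower in every sample of layer A, so the separation of layer A follows from the single genes. It is no further evidence.

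In the Homer family, Homer2 was higher in layer A by 2.10 ± 0.371 on the log2 scale against layer B (adjusted p = 0.00159) and 1.70 ± 0.366 against layer C (adjusted p = 0.00951, edgeR's quasi-likelihood test). It stood at 263, 180.4 and 88.9 CPM in layer A, 39.6, 35.5 and 49.2 CPM in layer B and 50.3, 69.8 and 43.4 CPM in layer C. Homer2 over the short form Homer1-204 per length was 61.9, 29.4 and 11.9 in layer A, 2.24, 3.04 and 2.15 in layer B and 2.59, 2.62 and 3.04 in layer C. Per length the long form Homer1-203 stood higher than the short form in each layer, so a ratio to it would be lower. In the ratio to Homer1-204, layer A was again apart, with exact two-sided permutation p = 0.1 against each layer and 0.5 between layers B and C. Homer2 was higher and Homer1-204 lower in every sample of layer A, so this separation too follows from the single genes. It is no further evidence. Homer3 was low at 0.702 to 2.62 CPM, from 11 to 214 counts in a sample, and did not pass.

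**Figure D4:**
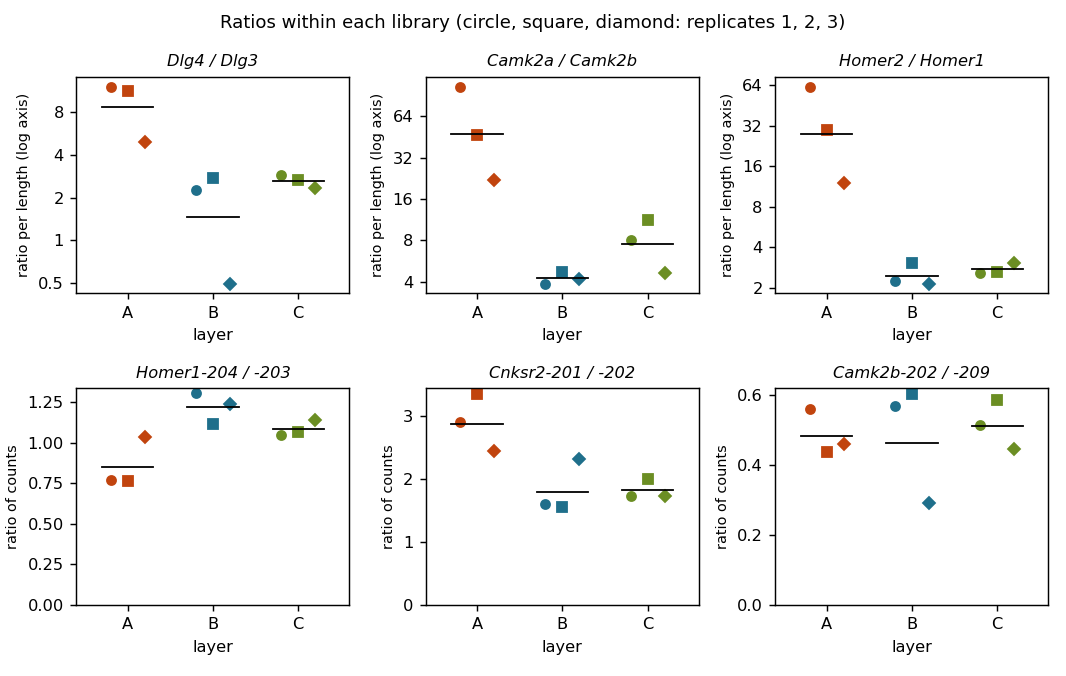
Ratios within each library, by layer. The upper row gives ratios of genes per transcript length on log axes, and the lower row ratios of counts between transcripts of a gene on linear axes from 0. Symbols are replicates 1, 2 and 3 and lines are geometric means. In each of the first 5 panels layer A is separate from both other layers. In the last, Camk2b-202 over Camk2b-209, the layers overlap. All 6 ratios were chosen after the values were seen, and how often other ratios separate layer A was not tested. With 3 samples against 3, the exact permutation p cannot fall below 0.1.

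Among the other MAGUK genes, Dlg2, which encodes PSD-93, was higher in layer A by 1.49 ± 0.322 against layer B (adjusted p = 0.0054, edgeR's quasi-likelihood test). Against layer C its value of 1.02 ± 0.319 lay just past the threshold and did not pass (adjusted p = 0.050003). Dlg1, which encodes SAP97, was at -0.49 and -0.27 and did not pass. Of the SAPAP genes, Dlgap2 was lower in layer A, at -1.07 ± 0.324 against layer B and -1.31 ± 0.326 against layer C (adjusted p = 0.0339 and 0.0183), while Dlgap3 (0.60 and 0.77) and Dlgap4 (-0.22 and -0.25) did not pass.

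Shank1, a scaffold below SAPAP, was higher in layer A by 1.92 ± 0.319 against layer B and 1.05 ± 0.311 against layer C (adjusted p = 0.00107 and 0.0403, edgeR's quasi-likelihood test). Shank2 was at 0.66 and 0.41 and Shank3 at 1.33 and 1.13, and neither passed. In the families of the GTPase regulators, Iqsec3 was higher than in layer B by 1.24 ± 0.322 (adjusted p = 0.015) and did not pass against layer C at 0.51 ± 0.318. Iqsec1 (0.08 and -0.48), Agap1 (0.64 and 0.50) and Agap3 (-0.12 and -0.14) did not pass.

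Against layer B, the smallest p-values outside these families belonged to Ppp1r9b and Erbin among the genes higher in layer A and to Baiap2 and Akap5 among those lower. Ppp1r9b encodes spinophilin, which targets protein phosphatase 1 to spines, and was 1.84 ± 0.295 higher against layer B and 1.37 ± 0.291 against layer C on the log2 scale (adjusted p = 0.000877 and 0.0091). Its paralog Ppp1r9a, which encodes neurabin and had a smaller p than Baiap2 against layer C, was -1.06 ± 0.266 and -1.11 ± 0.266 (adjusted p = 0.0126 and 0.0157). Erbin, a paralog of Lrrc7, was higher by 1.72 ± 0.310 and 1.41 ± 0.307 (adjusted p = 0.00175 and 0.0101). Erbin is also expressed outside neurons. Baiap2, which encodes the actin regulator IRSp53, was lower, at -2.28 ± 0.424 and -1.63 ± 0.415 (adjusted p = 0.00222 and 0.0205). Akap5, which anchors protein kinase A and calcineurin, was -1.60 ± 0.314 and -1.53 ± 0.314 (adjusted p = 0.00303 and 0.0077). Kalrn, Nrgn and Tanc2, also lower than in layer B, are named after their values were seen, at -1.11, -2.04 and -0.84 on the log2 scale. Between layers B and C, the 3 genes at an unadjusted p under 0.05 were Tanc1, Shank1 and Iqsec3. Their log2 differences of layer B minus layer C were 1.05 ± 0.301, -0.87 ± 0.310 and -0.74 ± 0.318, with adjusted p-values of 0.715 or more in edgeR's quasi-likelihood test.

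The members did not share 1 profile over the 9 samples. As a description over samples that share library depth and layer, Pearson's r of log2 CPM was 0.94 for Camk2b and Dlg3, 0.91 for Dlg3 and Homer1, 0.82 for Camk2b and Homer1 and 0.89 for Dlg4 and Agap2. It was -0.82 for Homer1 and Agap2, -0.81 for Dlg3 and Agap2 and -0.76 for Dlg3 and Dlg4. Each member's r with the mean of the other 8 ran from -0.66 in Agap2 to 0.74 in Lrrc7. Of 13530 protein-coding genes, those most like the members' mean were Fam189a1 (r = 0.983), Slc3a1 (0.980), Atp2b3 (0.979), Syt10 (0.972) and Fosb (0.971), over 9 samples. That mean covers members of unlike profile and describes no single one.

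Within layer A, the levels of Camk2b, Dlg3 and Homer1 stood in the same order as the samples' share of mitochondrial ribosomal RNA reversed, with replicate 1 lowest at a share of 70.2% and replicate 3 highest at 55.3%. In layer C, replicate 2 had a share of 57.1%, near that of layer A, and held the lowest Camk2b and Dlg3 values of its layer but the highest Homer1 value. In layer B, replicate 3 had the highest share, 28.1%, and the highest values of all 3 genes. Without mitochondrial transcripts in the counts, the test called 3 members against layer B and 3 against layer C.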

How the data were processed

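Piriform cortex layers A, B and C (3 samples each) were measured by RNA sequencing after laser capture. The authors amplified the RNA, made strand non-specific libraries and aligned paired reads of 50 bases to mm10 with Bowtie. The submitters' processing notes also name bcl2fastq 1.8.4 and HTSeq 0.5.3, without options. The deposited values are raw counts per Ensembl transcript, 95533 in each file, not normalized. How reads over several transcripts were counted is not given in the sources used here. Amplified reads without molecular identifiers are not independent molecules, so floors cover counting error only.

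Identifiers were matched to the GENCODE annotation of GRCm38 (82807, or 86.7%). A transcript was kept when 3 or more samples had 10 or more counts, which left 56416. Library sizes were scaled by TMM in edgeR 4.0.16 (R 4.3.3), and its quasi-likelihood F-test compared layers in 1 fit of all 9 samples with layer as the only term. Benjamini-Hochberg adjustment covered every tested transcript, with a threshold of 0.05. The standard error is the absolute log2 fold change over the square root of F. Correlations used log2 CPM with a prior count of 2. Scripts were tested on simulated counts. Alternatives were DESeq2 1.42.0, other factors and filters, a replicate block, sums by gene, 1 transcript per gene, and each sample left out. No pair of samples agreed within sampling noise. Named were all members, related genes of a member's family, and the up to 3 related genes with the smallest p in each direction and comparison. Members and gene lists were chosen with earlier results of these data known. Comparisons used the authors' counts only.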

Additional observations from a re-analysis of the deposited data

How the results depend on the processing

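The count of members that passed against layer B, all lower in layer A, was 3 under every alternative, and that between layers B and C was 0 under every alternative. Against layer C it was 3 except when a sample was left out, where it ranged from 1 to 3, with Lrrc7 in place of Camk2b without layer C replicate 3, and among the 3 layers together it also ranged from 1 to 3. For the related genes, leaving out a sample gave 10 to 17 against layer B and 0 to 16 against layer C. Without layer B replicate 3, 17 related genes passed against layer B and 16 against layer C, beside 15 and 11 with all 9 samples. What moved these counts when a sample was left out was not tested. Whether the replicate numbers of the labels pair the samples is not given, and the correlations that follow cannot decide it. Deviations of same-numbered samples correlated at -0.186 to 0.243 (mean 0.035), with 4 of 9 pairs over 0.1. Those of differently numbered samples ran from -0.369 to 0.394 (mean -0.014), with 6 of 18 over 0.1. With the replicate block, 3 members passed against layer B, 3 against layer C and 0 between layers B and C, and 3 among all layers. With this block, 14 related genes passed against layer B and 10 against layer C.

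Signs turned in values that passed no test under these alternatives, and the cause was not tested. With samples left out, Dlgap1 ran from -0.372 to 0.0228 (A minus B) and -0.334 to 0.00194 (B minus C), Homer1 from -0.497 to 0.0459 (B minus C), Lrrc7 from -0.47 to 0.23 (B minus C) and Agap2 from -0.473 to 0.0277 (B minus C). Iqsec2 ran from -0.21 to 0.35 (A minus B), -0.0249 to 0.453 (A minus C) and -0.13 to 0.43 (B minus C), and Cnksr2 from -0.20 to 0.56, -0.20 to 0.55 and -0.33 to 0.33. The other Cnksr2 transcript gave -0.42 against both layers. For Cnksr2 between layers B and C, upper-quartile factors gave -0.0702, the table without mitochondrial transcripts -0.0123, sums by gene -0.0101 and 1 transcript per gene -0.0268. Sums by gene gave -0.00386 for Iqsec2 against layer B. Without layer B replicate 3 and with the block, Dlgap1 was 0.18 and Iqsec2 -0.26 (A minus B), and Cnksr2 -0.55 (B minus C). Depth differs between samples, from 23104306 to 76471683 counts with 12.8% to 70.2% of them mitochondrial ribosomal RNA, and how far it limits small differences was not tested.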
